A study of Mus musculus with 8 samples.

Results

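The cardiomyocyte-rich barcodes were the cell barcodes of 4 dissociated mouse heart libraries in which heart muscle transcripts made up a sizeable share of the RNA. A barcode was taken when it held 200 to 6000 genes and 500 to 30000 unique molecular identifiers (UMIs, each counted as 1 captured transcript), when 8 heart muscle genes (Myh6, Tnnt2, Actc1, Tnni3, Ttn, Ryr2, Myl7 and Myl2) together gave at least 3% of its UMIs, and when the macrophage genes C1qa, C1qb and C1qc together gave fewer than 5. No limit was set on mitochondrial transcripts. Of 32473 barcodes, 29974 lay in the range of genes and UMIs, and 412 of these were cardiomyocyte-rich. The barcodes were chosen by the measured levels of the 8 genes, so those levels are given as a description and were not tested.

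All mice were wild-type male C57BL/6J, aged 8 weeks. In the TAC groups the aortic arch was narrowed with a suture (transverse aortic constriction, which loads the left ventricle with pressure), and hearts were taken after 2, 4 or 6 weeks. Sham mice had the same surgery with no ligation. Every condition (sham and the time points TAC-2w, TAC-4w, TAC-6w) had 1 single-cell library and 1 spatial section, 8 samples in all, and the labels give no number of hearts per library. The cell type label of the libraries is mixed cardiac cells, with no gate for muscle. With 1 sample per condition there is no replicate check, no test between conditions was made and no p-value is given, and the 95% intervals below are exact and cover counting error only. By the labels the sham and TAC-6w libraries belong to batch 3, TAC-2w to batch 1 and TAC-4w to batch 2, so batch and condition cannot be told apart for TAC-2w and TAC-4w. Of the sections, sham and TAC-2w belong to batch 1, TAC-4w to batch 2 and TAC-6w to batch 3, so there the same holds for TAC-4w and TAC-6w. The sources used here do not say whether the atria went into each library. All TAC comparisons share the same sham library.

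Cardiomyocytes are the contracting cells of the heart, with sarcomeres of myosin, actin, troponin and titin and a dense store of mitochondria. Adult ventricular cells are long and large, which makes them hard to pass intact through droplet instruments. Atrial cells use the myosin light chains Myl7 and Myl4 and secrete the natriuretic peptide Nppa, ventricular cells use Myl2 and Myl3, and ventricular cells under pressure load are known to turn on Nppa, Nppb, Myh7, Acta1 and Ankrd1.

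Cardiomyocyte-rich barcodes were rarer in the TAC-4w and TAC-6w libraries than in the sham and TAC-2w libraries. The sham library held 190 among 9129 barcodes in range, a share of 2.08% (1.80 to 2.40). The TAC-2w library held 158 of 7361, or 2.15% (1.83 to 2.50). The TAC-4w library held 44 of 7728, or 0.569% (0.414 to 0.764), and the TAC-6w library 20 of 5756, or 0.348% (0.212 to 0.536). The intervals of sham and TAC-2w overlapped each other and lay above those of TAC-4w and TAC-6w. Sham and TAC-6w, which share a batch label, lay on opposite sides of that gap. The summed UMIs of all cardiomyocyte-rich barcodes were 645670 in sham, 693414 in TAC-2w, 164100 in TAC-4w and 36500 in TAC-6w. The values for TAC-6w thus carry the widest intervals.

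The 3% threshold cut through a thin tail. The highest share just outside it was 2.97% in sham, 2.98% in TAC-2w, 2.79% in TAC-4w and 2.76% in TAC-6w, and the lowest share inside was 3.09%, 3.04%, 3.00% and 3.12%. Between 2% and 3% lay 67 barcodes left outside, against 71 inside between 3% and 4%. The limit on the C1q genes removed 3 barcodes of sham and 1 of TAC-2w. Among the other barcodes in range the median share was at most 0.0203% in any library.

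The 5 markers of the label were present in all 4 libraries. Summed over the cardiomyocyte-rich barcodes, Tnnt2 (a troponin of the thin filament) was at 10620 counts per 1000000 UMIs (CPM) in sham, 8217 in TAC-2w, 13130 in TAC-4w and 10470 in TAC-6w. Actc1, the cardiac actin, was at 5224, 5086, 10320 and 6384 CPM in the same order, against 29.0, 28.7, 5.84 and 7.58 CPM in the other barcodes. Tnni3, the inhibitory troponin, stood at 11710, 9466, 9927 and 12330 CPM. These levels were set by the rule, and none of the 5 markers was absent from a library. Myh6 (the fast myosin heavy chain) and Ttn (titin, the spring of the sarcomere) were uneven, with Myh6 at 3223, 7850, 1408 and 1342 CPM and Ttn at 2610, 5996, 694.7 and 383.6 CPM. Ryr2, the calcium release channel, was at 246, 459, 67.0 and 0 CPM, so no UMI of it was counted in the 20 barcodes of TAC-6w.

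Genes that the rule did not name stood out from the other barcodes as well. Over all libraries the greatest ratio to the other barcodes was 382 (235 to 639) for Nmrk2, a nicotinamide riboside kinase of muscle. Sln (sarcolipin, a small inhibitor of the calcium pump) had a ratio of 346, Mybphl (a myosin-binding protein of atrial muscle) 314, Smpx (a small muscle protein) 313, Adprhl1 (a heart-restricted protein of the ADP-ribosylhydrolase family) 301 and Csrp3 (the muscle LIM protein of the Z-disc) 298. Of the 10 features with the highest level, 7 were mitochondrially encoded, led by mt-Co3 at 43255 CPM, and the others were the ribosomal-RNA-like feature Gm42418 at 35425 CPM, Nppa at 17841 CPM and Tpm1 (tropomyosin) at 15377 CPM.

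These barcodes were shallow next to the rest of their library. In sham they ranged from 501 to 19957 UMIs with a median of 2054, against a median of 8888 in the other barcodes. The medians were 2663.5 against 10234 in TAC-2w, 1654.5 against 4232 in TAC-4w and 1626 against 4681.5 in TAC-6w. The cardiomyocyte-rich barcodes thus had fewer UMIs than the other barcodes in every library. Thinned to 500 UMIs each, they showed a median of 274, 268.5, 272 and 253 genes, against 336, 332, 298 and 336 in the other barcodes, so their RNA was spread over fewer genes at equal depth too.

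The promoters of 4 genes on which the following sections turn are shown first, as the 250 bases before the RefSeq transcription start of GRCm38.p6 (mm10). Myl7 and Myl3 tell the chambers apart, and Acta1 and Ankrd1 are load-response genes that stood above sham in the ventricular-rich barcodes of all 3 TAC libraries, by under 2-fold for Ankrd1 in TAC-2w (1.82) where the rule genes had to reach 5% of UMIs. Capitals mark matches to 3 motifs known from muscle promoters, searched on both strands: the TATA box (TATAAA), the M-CAT element (CATTCC, which reads GGAATG when it lies on the other strand) and the CArG box. The Myl7 promoter lies at chr11:5898783-5899032 on the minus strand, that of Myl3 at chr9:110763428-110763677 on the plus strand, that of Acta1 at chr8:123894776-123895025 on the minus strand and that of Ankrd1 at chr19:36119845-36120094 on the minus strand.
Myl7: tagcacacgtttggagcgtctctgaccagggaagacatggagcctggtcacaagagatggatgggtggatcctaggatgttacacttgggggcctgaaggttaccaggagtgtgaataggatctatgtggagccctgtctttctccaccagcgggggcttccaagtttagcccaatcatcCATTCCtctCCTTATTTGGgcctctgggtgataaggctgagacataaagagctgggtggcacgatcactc
Myl3: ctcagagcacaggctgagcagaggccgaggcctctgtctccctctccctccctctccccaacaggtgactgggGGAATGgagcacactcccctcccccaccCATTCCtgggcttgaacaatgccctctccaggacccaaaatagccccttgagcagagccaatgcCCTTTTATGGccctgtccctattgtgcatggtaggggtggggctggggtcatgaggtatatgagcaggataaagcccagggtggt
Acta1: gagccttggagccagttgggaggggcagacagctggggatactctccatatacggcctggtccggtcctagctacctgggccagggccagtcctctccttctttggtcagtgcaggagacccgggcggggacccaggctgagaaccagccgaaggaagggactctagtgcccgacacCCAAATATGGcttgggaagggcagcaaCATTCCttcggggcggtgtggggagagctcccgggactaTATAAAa
Ankrd1: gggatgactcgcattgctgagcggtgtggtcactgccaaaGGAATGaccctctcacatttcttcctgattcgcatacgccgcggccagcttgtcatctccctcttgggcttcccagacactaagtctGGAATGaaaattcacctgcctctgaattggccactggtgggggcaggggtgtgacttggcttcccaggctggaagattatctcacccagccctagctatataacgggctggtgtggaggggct
In Acta1 (skeletal alpha actin, the actin of the fetal and the overloaded ventricle), a TATA box match began 7 bases before the start, an M-CAT match 46 and a CArG match 73 bases before it. Ankrd1 (a stretch-responsive ankyrin repeat protein of the sarcomere) held M-CAT matches at 210 and 123 bases. Myl7 held an M-CAT match at 70 and a CArG match at 61 bases, and Myl3 held M-CAT matches at 177 and 149 and a CArG match at 85 bases. Among 32851 promoters of the same length, 12.4% held TATAAA, 12.6% an M-CAT match and 1.47% a CArG match. The promoters of Myl4, Nppa, Myl2 and Myh6 were searched as well and held fewer matches. Myl4 held none, and Nppa held only a TATA box match, at 9 bases. A Myl2 window held only a TATA box match, at 216 bases, and its other window none. Myh6 held only an M-CAT match, at 206 bases. The promoters shown are thus a choice, and no excess over the shares of all promoters is drawn from them. A match describes the letters only.

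Mitochondrially encoded transcripts took a wide range of shares. Among the 190 barcodes of sham the share ran from 0.488% to 70.7% with a median of 13.4%. It ran from 0.0608% to 72.0% in TAC-2w (median 17.0%), from 0.847% to 53.4% in TAC-4w (median 17.0%) and from 1.26% to 62.2% in TAC-6w (median 14.4%). The ranges of the 4 libraries overlapped almost wholly. In the other barcodes of the same libraries the medians were 4.59%, 4.73%, 5.32% and 2.61%.

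**Figure D1:**
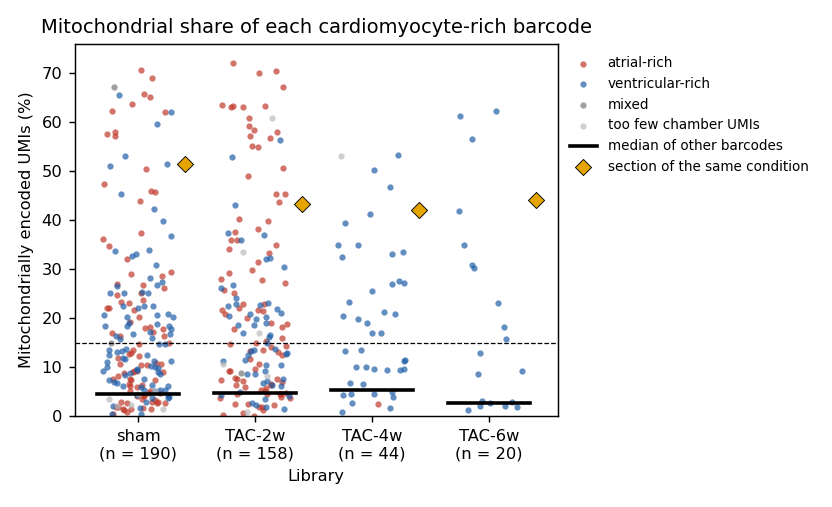
Share of mitochondrially encoded UMIs (percent, vertical axis) of each cardiomyocyte-rich barcode by library, 1 point per barcode coloured by chamber class and spread sideways for view, with the median of the other barcodes (black bars), the section of the same condition (diamonds) and a dashed line at 15%. The points spread from near 0 to about 70% in sham and TAC-2w, and 207 of the 412 lie under the line.

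A limit of 15% on this share, as used in the study's own filtering, would keep 207 of the 412 barcodes. It would keep 102 of sham (53.7%), 74 of TAC-2w (46.8%), 21 of TAC-4w (47.7%) and 10 of TAC-6w (50%), whereas it would keep 90.9%, 89.2%, 87.5% and 97.1% of the other barcodes. Over 50% lay 18, 21, 3 and 3 barcodes. Summed over barcodes, the share was 20.2% in sham, 25.8% in TAC-2w, 12.0% in TAC-4w and 20.4% in TAC-6w, and it was 51.5%, 43.4%, 42.2% and 44.2% in the heart sections of the same conditions. The cardiomyocyte-rich barcodes therefore lay between the other barcodes and the whole tissue. Within a library the mitochondrial share and the share of the 8 rule genes ran against each other, with Spearman's rho of -0.503 over the 190 barcodes of sham, -0.272 over the 158 of TAC-2w, -0.607 over the 44 of TAC-4w and -0.767 over the 20 of TAC-6w. Both are shares of 1 total and the second was cut at 3% by the rule, so this is a description only. With the rule genes as a share of UMIs that were not mitochondrial, rho was 0.268, 0.515, 0.155 and 0.0451, so the sign turned, though TAC-6w lay near no correlation. The cut at 3% of all UMIs asked for a higher such share in barcodes with many mitochondrial UMIs. That favoured a positive rho, so these values are a description too.

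The makeup by chamber differed between the libraries. The atrial share was taken as the UMIs of Myl7, Myl4 and Sln over those plus the UMIs of Myl2 and Myl3. Myl7 and Myl2 belong to the rule, the other 3 genes do not. Summed over barcodes it was 57.8% (57.2 to 58.4) in sham, from 17676 atrial and 12907 ventricular UMIs. It was 70.2% (69.7 to 70.7) in TAC-2w, 7.51% (6.89 to 8.18) in TAC-4w and 0.0592% (0.00150 to 0.329) in TAC-6w, where 1 atrial UMI stood against 1688 ventricular ones. In TAC-4w all 206 Myl7 UMIs, 136 of the 138 Myl4 UMIs and all 150 Sln UMIs lay in 1 barcode. The TAC-4w value thus rested on that barcode. Nearly all atrial transcripts thus came from the sham and TAC-2w libraries, and whether the hearts were dissected alike for each library was not tested. Sham and TAC-6w carry the same batch label.

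Single barcodes were nearly all of 1 chamber. Of the 399 with at least 10 UMIs of the 5 genes, 379 had an atrial share of at most 5% or at least 95%, and 7 lay within 10 percentage points of a cut at 20% or 80%. With these cuts, which make ranges of a score and not cell types, the sham library held 92 atrial-rich, 90 ventricular-rich and 2 mixed barcodes, and 6 had too few UMIs of the 5 genes. The TAC-2w library held 96 atrial-rich, 55 ventricular-rich and 1 mixed barcode, and the TAC-4w library 1 atrial-rich and 42 ventricular-rich barcodes. All 20 barcodes of TAC-6w were ventricular-rich. Atrial-rich barcodes were 50% (42.6 to 57.4) of the classed barcodes in sham, 63.2% (55.0 to 70.8) in TAC-2w and 2.33% (0.0589 to 12.3) in TAC-4w, and 0 of 20 in TAC-6w (exact upper bound 16.8%, or 15.0% at the limit of 3 counts that a count of 0 allows).

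**Figure D2:**
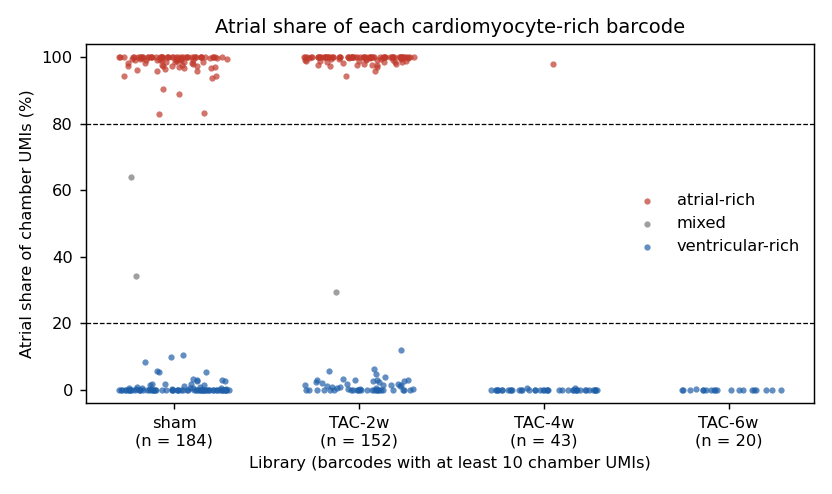
Atrial share (UMIs of Myl7, Myl4 and Sln over those plus Myl2 and Myl3, in percent, vertical axis) of each barcode with at least 10 such UMIs, by library, with dashed lines at the cuts of 20% and 80% and points spread sideways for view. Points gather at both ends in sham and TAC-2w, and 42 of 43 in TAC-4w and 20 of 20 in TAC-6w lie at the ventricular end.

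The heart sections held almost no atrial transcripts. Their atrial share was 0.00855% in sham, 0.0119% in TAC-2w, 0.0173% in TAC-4w and 0.0125% in TAC-6w, and 0 spots of 1676, 2063, 1228 and 2193 passed the atrial-rich cut. The sections can therefore be set beside the ventricular-rich barcodes only.

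Atrial-rich and ventricular-rich barcodes differed in many genes beyond those of the score. Of 1494 genes that had 50 UMIs or more in 1 of the sums, 140 were at least 2-fold higher in atrial-rich barcodes (9.37%) and 117 at least 2-fold lower (7.83%), and these counts were 169 and 79 when the total held neither mitochondrial nor ribosomal-RNA-like features. Leaving those features out adds 0.21 to every log2 ratio of this comparison, in which they made up 30.4% of atrial-rich and 19.7% of ventricular-rich UMIs. Within sham alone 5.46% of 678 genes were higher and 6.64% lower, and within TAC-2w 12.3% and 13.1% of 803. The classes were cut from these same barcodes, so the ratios are descriptions. Over all libraries the atrial-rich sum held 322189 UMIs of sham, 491585 of TAC-2w and 7418 of TAC-4w. The ventricular-rich sum also held 155972 UMIs of TAC-4w and 36500 of TAC-6w. In ratios over all libraries, chamber therefore cannot be told apart from condition and batch.

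Among hormones and secreted proteins of the atrium, Nppa had enough UMIs in both chamber sums. Nppa, the atrial natriuretic peptide, was at 29700 CPM in atrial-rich and 674 CPM in ventricular-rich barcodes of sham, a ratio of 44.1 (38.4 to 50.8), and at 33620 against 1208 CPM in TAC-2w, a ratio of 27.8 (24.5 to 31.8). Bmp10, a growth factor of atrial muscle, was 96.2-fold higher over all libraries (26.3 to 799, from 227 against 2 UMIs). Dkk3 (a secreted protein of the Dickkopf family) was 137-fold higher and Pam, the enzyme that amidates peptide hormones, 27.2-fold higher. Of the 10 genes of a further atrial list, 6 had enough UMIs over all libraries (Nppa, Bmp10, Dkk3, Pam, the potassium channel Kcnj3 and the transcription factor Tbx5), and in sham alone 2 did. All but Nppa of these had enough UMIs only in the atrial-rich sum, which nearly fixed their place past 2-fold higher, so the count supports nothing.

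The ratios of sarcomere genes between the chamber classes are given as a description. The light chains and Sln set the classes, so their ratios only describe the cut. Mybphl was 384-fold higher in atrial-rich barcodes (453 against 1 UMI), Sln 293-fold, Myl7 264-fold and Myl4 199-fold. Myl2 had a ratio of 0.00274 and Myl3 of 0.0183. Acta1 was not counted in any of the 92 atrial-rich barcodes of sham or the 96 of TAC-2w, against 72 and 160 UMIs in ventricular-rich barcodes, which puts it at least 24.8-fold lower in sham and at least 136-fold lower in TAC-2w at a floor of 3 counts per sum. Ankrd23, a titin-associated ankyrin repeat protein, had a ratio of 0.0222, and Tesc (tescalcin, a calcium-binding protein) of 0.0385. Both are ratios over all libraries, and the ventricular-rich sum includes TAC-4w and TAC-6w, where Ankrd23 stood above sham. Of 24 sarcomere genes with enough UMIs, 9 were genes of the chamber score or the rule. Among the other 15, Nebl (nebulette) was past 2-fold higher and Tnnc1 (cardiac troponin C) and Acta1 lower, against 9.37% and 7.83% of all genes. Acta1 had enough UMIs only in the ventricular-rich sum, which favoured its lower place, and no conclusion is drawn from these counts.

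Of the calcium handling genes, Atp2a2 (the calcium pump of the sarcoplasmic reticulum) was 4.61-fold higher in atrial-rich barcodes over all libraries (4.09 to 5.20), 3.50-fold in sham and 8.74-fold in TAC-2w. Without barcodes of Malat1 over 5000 CPM it stood at 1414 CPM in atrial-rich and 475 CPM in ventricular-rich barcodes, a smaller gap. Slc8a1 (the sodium-calcium exchanger), Casq2 and Hrc were also past 2-fold higher over all libraries, which with Sln and Ryr2 left out made 4 of 10. In sham alone those 3 had too few UMIs, with Casq2 at 23 against 11 and Hrc at 38 against 24, and genes that enter through the atrial-rich sum make the count a description only. Pln (phospholamban, the brake on that pump) was the 1 lower gene, at 0.307 (0.291 to 0.324), opposite to Sln. Over all genes 9.37% were higher and 7.83% lower in this comparison. Of 13 fatty acid oxidation genes 1 was higher (Cpt1b) and 3 were lower, among them Fabp3, the fatty acid binding protein of muscle, at 0.313 (0.298 to 0.329). Of 9 energy transfer genes 2 were lower, the muscle creatine kinase Ckm at 0.403 and myoglobin (Mb) at 0.464, and 0 of 14 nuclear respiratory chain genes passed 2-fold either way. Without the 30 barcodes whose nuclear RNA Malat1 was over 5000 CPM, 89 genes in place of 140 were past 2-fold higher, and without the TAC-2w library 39.

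Because the libraries differed in chamber, the conditions were compared within the ventricular-rich barcodes, 90 of sham, 55 of TAC-2w, 42 of TAC-4w and 20 of TAC-6w. In sham these had 311456 UMIs, in TAC-2w 192131, in TAC-4w 155972 and in TAC-6w 36500, and in TAC-4w 2 barcodes held 34.2% of the UMIs. Of the genes with enough UMIs, 0.982% of 611 were at least 2-fold higher in TAC-2w than in sham and 0.982% at least 2-fold lower. In TAC-4w 3.1% of 613 were higher and 1.79% lower, and in TAC-6w 3.48% of 604 were higher and 12.6% lower. With the far smaller sum of TAC-6w, a gene that had enough UMIs only in sham could be counted a few times there at most. That favoured a lower place, so the excess of lower genes in TAC-6w is a description only. Of 12 load-response genes listed, 4, 4 and 3 had enough UMIs. Acta1 was past 2-fold higher in all 3 TAC libraries. Ankrd1 was too, but in TAC-2w its ratio was 1.82, and so not past 2-fold, with 5% in place of 3% of UMIs from the rule genes, an alternative added after the data were seen. Xirp2 was past it in TAC-4w, which it entered through its 81 UMIs there against 46 in sham, and Nppa was past it in TAC-6w, where it rested on 1 barcode. In TAC-4w Nppa was past 2-fold lower. Taking mitochondrial and ribosomal-RNA-like features out of the total shifts every log2 ratio by -0.07, -0.13 and -0.01.

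Acta1 was higher in all 3 TAC libraries. It stood at 231 CPM in sham, 833 in TAC-2w, 4090 in TAC-4w and 1644 in TAC-6w. The ratios to sham were 3.60 (2.71 to 4.83), 17.7 (13.9 to 22.9) and 7.11 (4.96 to 10.2). Acta1 was spread over many barcodes. At least 1 UMI was found in 17 of 90 in sham (18.9%), 19 of 55 in TAC-2w (34.5%), 28 of 42 in TAC-4w (66.7%) and 10 of 20 in TAC-6w (50%), against 0.705%, 1.64%, 0.924% and 2.93% of the other barcodes, which were deeper. Thinned to 500 UMIs per barcode the shares were 8.89% (3.92 to 16.8), 20.0% (10.4 to 33.0), 42.9% (27.7 to 59.0) and 30.0% (11.9 to 54.3), so only the TAC-4w interval lay wholly above that of sham. Without the barcode richest in Acta1 the levels were 178, 702, 3470 and 1312 CPM, in the same order of libraries.

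Ankrd1 was higher in all 3 TAC libraries too, though more by single barcodes. It was at 944 CPM in sham, 2186 in TAC-2w, 4821 in TAC-4w and 4274 in TAC-6w, with ratios to sham of 2.32 (1.99 to 2.70), 5.11 (4.46 to 5.86) and 4.53 (3.70 to 5.52). In TAC-4w, 336 of its 752 UMIs lay in 1 barcode, the deepest of that library with 28323 UMIs. Without the richest barcode of each library the levels were 861, 1940, 3259 and 3305 CPM, above sham in each TAC library and with TAC-4w no longer the highest. The share of barcodes with an Ankrd1 UMI, thinned to 500 UMIs each, was 28.9% (19.8 to 39.4) in sham, 41.8% (28.7 to 55.9) in TAC-2w, 50% (34.2 to 65.8) in TAC-4w and 30.0% (11.9 to 54.3) in TAC-6w, and all TAC intervals overlapped that of sham. Over these thinned barcodes the ratios of level to sham were 3.88, 3.61 and 5.79, so the order of the TAC libraries was not stable. Ankrd23, of the same protein family, was at 238, 260, 955 and 877 CPM, 4.02-fold sham in TAC-4w (2.57-fold without the richest barcodes) and 3.69-fold in TAC-6w (8.50-fold when thinned). Xirp2 (a protein of the intercalated disc) was at 148, 271, 519 and 247 CPM, 3.52-fold sham (2.42 to 5.17) in TAC-4w. Of 19 sarcomere genes tested the only ones past 2-fold were Acta1 in each TAC library and the intermediate filament gene Des in TAC-4w, at 2071 against 771 CPM, where 0.982%, 3.1% and 3.48% of all genes were higher in TAC-2w, TAC-4w and TAC-6w.

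Nppa went a different way. It was at 674 CPM in sham, 1208 in TAC-2w, 38.5 in TAC-4w and 4685 in TAC-6w, with ratios to sham of 1.79 (1.48 to 2.17), 0.0571 (0.0207 to 0.126) and 6.95 (5.64 to 8.54). In sham 140 of its 210 UMIs and in TAC-6w 161 of 171 came from 1 barcode. Without the richest barcode of each library Nppa was at 226, 937, 23.5 and 289 CPM, 4.14-fold sham in TAC-2w and 1.28-fold in TAC-6w. Thinned to 500 UMIs per barcode the TAC-6w ratio was 3.57. The TAC-6w level of Nppa thus rested on 1 barcode of 20, in which all 9 Nppb UMIs of that library lay too. In sham and TAC-2w, where atrial-rich barcodes were common, Nppa was also found in 31.2% and 55.5% of the other barcodes, close to the 33.3% and 63.6% of the ventricular-rich ones, with a median depth of 8888 and 10234 UMIs against 2218 and 2365. Thinned to 500 UMIs these shares were 4.60% and 10.6% against 17.8% and 30.9%. Free atrial RNA in the droplets was not tested. Nppb (a natriuretic peptide of the loaded ventricle) had 14, 24, 42 and 9 UMIs and Myh7, the slow myosin heavy chain, 6, 7, 7 and 4, too few to compare.

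**Figure D3:**
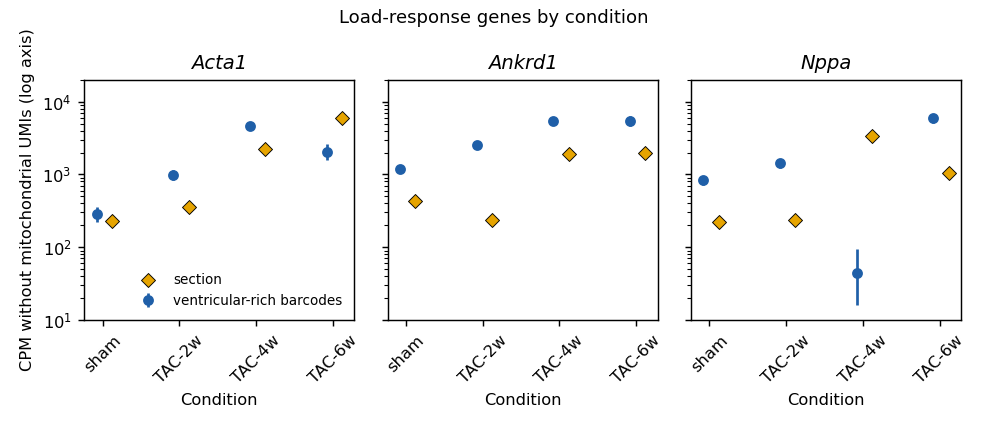
Levels of Acta1, Ankrd1 and Nppa (CPM without mitochondrial UMIs, log axis) by condition in ventricular-rich barcodes (circles, with exact 95% intervals) and in the heart section (diamonds, no interval drawn). Acta1 in the barcodes is highest in TAC-4w and in the sections in TAC-6w, and Nppa in TAC-4w is low in the barcodes and high in the section.

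The respiratory chain and fat oxidation genes of the ventricular-rich barcodes passed 2-fold about as rarely as other genes in TAC-2w and TAC-4w. In TAC-2w and TAC-4w 0 of 14 nuclear respiratory chain genes, 0 of 10 fatty acid oxidation genes, 0 of 8 energy transfer genes and 0 of 4 calcium handling genes passed 2-fold, where 0.982% of all genes were higher and 0.982% lower in TAC-2w, and 3.1% and 1.79% in TAC-4w. In TAC-6w 2 of 14 nuclear respiratory chain genes were past 2-fold higher, against 3.48% of all genes, with the cytochrome oxidase subunit Cox6a2 at 6959 against 2581 CPM (2.70-fold, 2.33 to 3.11) and Cox8b at 4411 against 1997 CPM (2.21-fold). Past 2-fold lower there were 1 of 14 respiratory chain genes, Sdha of complex II (4 UMIs against 88), and 2 of 10 fatty acid oxidation genes, Hadhb (9 against 171) and Acadvl, where 12.6% of all genes were lower, each from at most 9 UMIs in the TAC-6w sum, and the intervals of Sdha (0.103 to 1.03) and Acadvl (0.144 to 1.10) included 1.

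Genes of other cells were among the largest ratios. Fabp4, a fatty acid binding protein of capillary endothelium, was 13.8-fold sham in TAC-4w, and 116 of its 131 UMIs came from 1 barcode of 7059 UMIs that also held 7 UMIs of Pecam1, 5 of Cdh5, 5 of Kdr and 3 of Egfl7. With the highest Scrublet scores left out, and so without it, the ratio was 1.65. Scrublet, a caller of doublets, marked this barcode and no other of the 412, and no doublets were removed. In TAC-2w Fabp4 was 7.76-fold sham, with 52 of 91 UMIs in 1 barcode and 3.76-fold without the richest barcodes. Haemoglobin was highest in sham, with Hbb-bs at 5789 CPM against 203, 308 and 27.4 CPM, and 1581 of the 1803 UMIs lay in 1 sham barcode, without which the sham level was 723 CPM. Ptgds, a prostaglandin D synthase, was at 144.5, 265, 1077 and 247 CPM, 7.45-fold sham in TAC-4w and in 20 of 42 barcodes there. Its TAC-4w ratio was 3.57 when thinned to 500 UMIs per barcode and 11.2 at a mitochondrial share under 15%, and its TAC-2w ratio of 1.84 was 0.818 when thinned. Fabp4 had 19 and Ptgds 45 UMIs in sham, so both had enough UMIs only in TAC-2w and TAC-4w. That favoured a place past 2-fold higher.

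The TAC libraries were also compared with sham over all cardiomyocyte-rich barcodes, which differ in makeup by chamber. In TAC-2w 3.3% of 1271 genes were at least 2-fold higher than in sham and 0.629% lower. In TAC-4w 4.74% of 1098 were higher and 5.74% lower, 52 against 63 genes, and 27 against 75 when the total held neither mitochondrial nor ribosomal-RNA-like features, which shifts every log2 ratio there by -0.15 (by 0.12 in TAC-2w and -0.03 in TAC-6w). In TAC-6w 6.02% of 1097 were higher and 17.0% lower, 66 against 186 genes. With a floor of 20 UMIs these were 356 against 292, so the excess of lower genes turned. The TAC-6w sum of 36500 UMIs was far below the 645670 of sham, so these counts are a description only. Myl4 was at 9765 CPM in sham, 10820 in TAC-2w, 841 in TAC-4w and 0 in TAC-6w, at least 119-fold lower there, and Sln was at 6373, 6376, 914 and 0 CPM. The 1 atrial-rich barcode of TAC-4w held 136 of the 138 Myl4 UMIs and all 150 Sln UMIs of that library's sum. Acta1, which atrial-rich barcodes lacked, was 34.4-fold sham in TAC-4w over all barcodes, against 17.7-fold in ventricular-rich ones.

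The atrial-rich barcodes could be compared between sham (92) and TAC-2w (96) only. There 3.33% of 810 genes were at least 2-fold higher in TAC-2w and 1.73% lower. Bmp10 was at 417 CPM in TAC-2w and 68.3 in sham, 6.11-fold (3.93 to 9.96), and Kcnj3 (a subunit of the acetylcholine-gated potassium channel) 2.84-fold (1.68 to 5.04). Nppa differed less, at 33620 against 29700 CPM (1.13-fold, 1.10 to 1.16). Myh6 (2.12-fold), Ttn (2.08-fold), Slc8a1 (2.41-fold), Xirp2 (2.32-fold) and Ccn2 (a matricellular protein, 2.35-fold) were higher as well. Bmp10, Kcnj3, Slc8a1, Xirp2 and Ccn2 had 22, 18, 19, 26 and 17 UMIs in sham, so each had enough UMIs only in TAC-2w, which favoured a place past 2-fold higher. Myl3 was lower at 0.390 (0.287 to 0.526). Mitochondrial UMIs were 30.1% of the TAC-2w and 20.7% of the sham sum, and leaving them and the ribosomal-RNA-like features out adds 0.20 to every log2 ratio. The nuclear RNAs Malat1 (3.81-fold) and Neat1 (2.67-fold) were also higher, and 13 atrial-rich barcodes of TAC-2w and 6 of sham had Malat1 over 5000 CPM. Without these barcodes, an alternative added after the data were seen, Malat1 was 1.02-fold (0.778 to 1.34) and Neat1 had 1 UMI against 2. Myh6 (2.18-fold), Ttn (2.23-fold) and Xirp2 (2.27-fold, 59 against 22 UMIs) were still past 2-fold without them. Myh6 and Ttn belong to the rule, so their ratios are a description only. Slc8a1, with 34 against 14 UMIs, no longer had enough UMIs (2.06-fold, 1.07 to 4.15), nor did Ccn2, which was 1.46-fold (0.661 to 3.40). Kcnj3 also fell short of enough UMIs, with 41 against 10 (3.47-fold, 1.71 to 7.77). Bmp10 was 20.5-fold (7.76 to 76.8, from 97 against 4 UMIs).

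Malat1, a nuclear long non-coding RNA that most cells hold in quantity, was scarce in these barcodes. Its median was 376 CPM in sham, 313 in TAC-2w and 0 in TAC-4w and TAC-6w, against 27381, 27523, 30744 and 27656 CPM in the other barcodes. No Malat1 UMI was counted in 66 of 190, 50 of 158, 24 of 44 and 17 of 20 barcodes. In 30 barcodes Malat1 was over 5000 CPM, a value chosen after the data were seen, and 19 of these were atrial-rich and 2 ventricular-rich. The 19 had a median of 9904 UMIs and a mitochondrial share of 35.9%, and the other 170 atrial-rich barcodes a median of 2401.5 UMIs and 14.3%. Levels differed both ways between the 19 and the 170, with Ttn at 9430 against 4961 CPM, Ryr2 at 944 against 324 CPM and Atp2a2 at 4591 against 1414 CPM, and with Tnnt2 (4189 against 10130 CPM), Tpm1 (5133 against 13450 CPM) and Sln (4756 against 12320 CPM) lower in the 19.

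**Figure D4:**
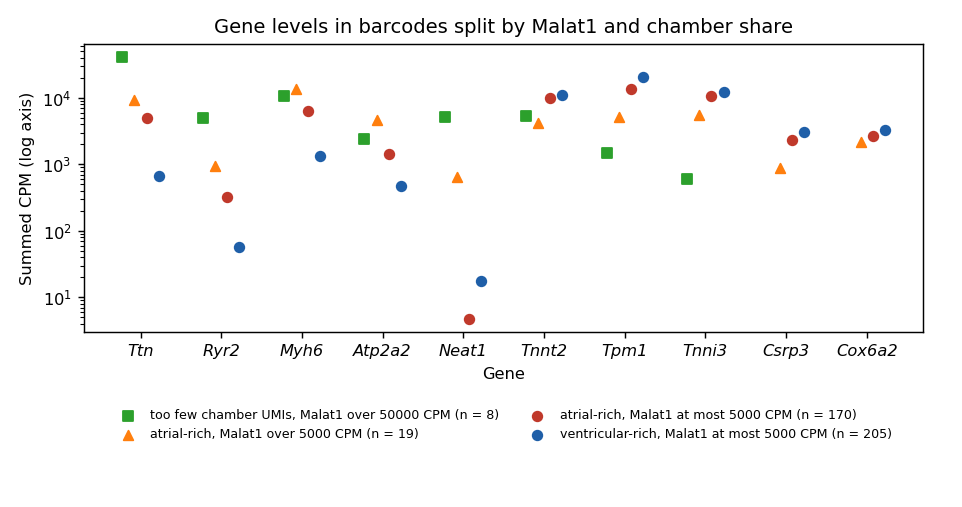
Summed levels (CPM, log axis, a level of 0 not drawn) of named genes over all libraries in cardiomyocyte-rich barcodes split by Malat1 level and chamber. The 8 barcodes with Malat1 over 50000 CPM stand highest for Ttn, Ryr2 and Neat1 and lowest for Tpm1 and Tnni3, and they have no point for Csrp3 and Cox6a2.

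A set of 8 barcodes, 5 of sham and 3 of TAC-2w, had Malat1 over 50000 CPM and too few UMIs of the chamber genes to be classed. Their median was 1127.5 UMIs with a mitochondrial share of 4.08% (0.785% to 17.1%). Malat1 was at 119700 CPM in their sum, Neat1 at 5184 CPM, Ttn at 41210 CPM and Ryr2 at 5011 CPM. Tnni3 (605 CPM) and Tpm1 (1469 CPM) were low, and Csrp3 and the respiratory gene Cox6a2 were not counted. They passed the rule mainly through Ttn. In the 205 ventricular-rich barcodes with Malat1 of at most 5000 CPM, Ttn was at 659 CPM, Ryr2 at 57.0 CPM, Tnni3 at 12110 CPM and Csrp3 at 3046 CPM. By the labels nuclei were prepared and by the study's methods cells were released with enzymes, and which of these gave each library was not tested.

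The ventricular-rich barcodes held many genes at lower levels than the heart sections, among them the myosin heavy chain Myh6, titin and most calcium handling genes. Of the genes with at least 50 UMIs in the barcodes or 1000 in the section, 43.0% of 1757 were at least 2-fold lower in the barcodes in sham, 40.9% of 3251 in TAC-2w, 41.9% of 2492 in TAC-4w and 55.9% of 3670 in TAC-6w, and 12.0%, 7.23%, 10.2% and 9.18% were at least 2-fold higher. In these sums fewer muscle cells and less RNA per cell cannot be told apart, and both were taken per 1000000 UMIs that were not mitochondrial. Most of the genes compared had fewer than 50 UMIs in the barcodes and entered through the section, which favoured a lower place. The shares are therefore descriptions, and Myh6 and Ttn belong to the rule. Myh6 was at 1660 CPM in the barcodes and 15100 CPM in the section of sham, a ratio of 0.110 (0.0996 to 0.121), and the ratios were 0.101, 0.250 and 0.133 in TAC-2w, TAC-4w and TAC-6w. Atp2a2 had ratios of 0.0473, 0.0336, 0.0962 and 0.0762, and Ttn of 0.246, 0.302, 0.301 and 0.186. Of 12 calcium handling genes, 9, 7, 7 and 8 were past 2-fold lower in the barcodes and 0 higher in the 4 conditions, with median ratios of 0.204, 0.201, 0.292 and 0.158. In the comparisons with sham only 4 calcium handling genes had 50 UMIs in a ventricular-rich sum. The others entered here through the section, which favoured a lower place, so these counts are a description. Of 15 fatty acid oxidation genes, 9, 9, 9 and 8 were lower and 0 higher, among them Cd36, the fatty acid transporter, and Cpt1b, the gate to mitochondrial oxidation, and in TAC-6w that share was below the 55.9% of all genes.

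The light chain Myl2, the troponin Tnnt2 and tropomyosin went the other way. Myl2 and Tnnt2 belong to the rule, and Myl2 set the ventricular-rich class too, so the choice of barcodes favoured their excess, whereas Tpm1 was not used in that choice. Myl2 had ratios of 1.56, 1.75, 2.13 and 2.37, Tnnt2 of 1.90, 1.71, 2.24 and 2.38 and Tpm1 of 2.31, 2.17, 3.11 and 2.59. Of 23 sarcomere genes, 3, 5, 5 and 5 were past 2-fold higher in the barcodes and 8, 7, 7 and 9 lower, a smaller share than the 43.0%, 40.9%, 41.9% and 55.9% of all genes that were lower. This list holds genes of the rule, among them Myh6, Ttn, Tnnt2, Tnni3 and Myl2, so the counts are a description only. Myh6, Ttn, Mybpc3 (myosin-binding protein C), Actn2 (alpha-actinin), Myom2 and Ldb3 were among the lower ones in all 4 conditions. The median ratio of the list was 1.08, 1.26, 1.28 and 0.792, and that of the nuclear respiratory chain genes 0.860, 0.635, 0.844 and 1.49. The libraries and sections were made by different assays from different samples.

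**Figure D5:**
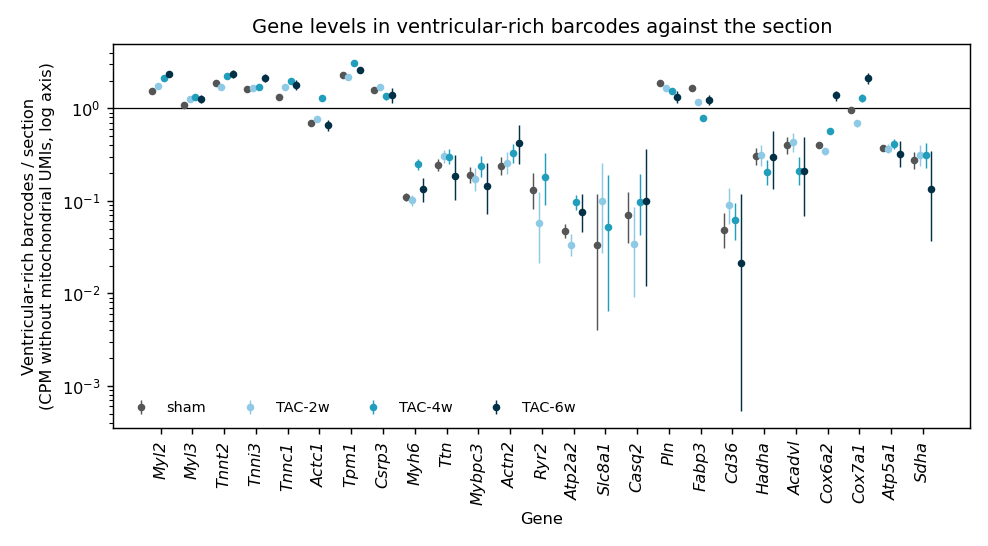
Ratio of the level in ventricular-rich barcodes to that in the heart section of the same condition (CPM without mitochondrial UMIs, log axis), by gene, with 1 point per condition, exact 95% intervals and no point where the barcodes held no UMI. Myh6, Ttn and Atp2a2 lie below 1 and Myl2, Tnnt2 and Tpm1 above 1 in all 4 conditions, and Myh6, Ttn, Ryr2, Myl2, Tnnt2, Tnni3 and Actc1 are genes of the rule.

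The TAC conditions were also set beside sham in the sections. In sections Acta1 was at 227 CPM in sham and at 351, 2224 and 6036 CPM after 2, 4 and 6 weeks of TAC, 1.55-fold, 9.82-fold and 26.6-fold sham, and at 287, 980, 4661 and 2064 CPM in the ventricular-rich barcodes. Both readouts were above sham in every TAC condition, and the highest was TAC-6w in the sections and TAC-4w in the barcodes. Ankrd1 was 0.549-fold, 4.50-fold and 4.52-fold sham in the sections and 2.20-fold, 4.69-fold and 4.58-fold in the barcodes. In TAC-2w Ankrd1 thus lay below sham in the section and above sham in the barcodes, and this difference was not tested. Myh7 was at 12640 CPM in the TAC-4w section against 86.4 CPM in sham (146-fold, 138 to 155), and at 51.1 CPM, from 7 UMIs, in the TAC-4w barcodes, a ratio to the section of 0.00404 (0.00163 to 0.00833). Myh6 in that section was 0.432-fold sham, whereas in the barcodes it was 0.981-fold (0.830 to 1.16). Myh7 in the TAC-4w barcodes thus lay below its level in the TAC-4w section. Myh6 belongs to the rule, so its level in the barcodes is a description only.

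Markers of other cell types were mostly lower in the cardiomyocyte-rich barcodes than in the other barcodes of the same library, with the skeletal muscle genes of sham (15.5 against 6.94 CPM) and TAC-2w (13.0 against 7.98 CPM) as exceptions. The 6 fibroblast genes summed to 484.8, 359.1, 67.0 and 164.4 CPM in the order used above, led by Gsn, against 28990, 28750, 6201 and 22900 CPM in the other barcodes. The 6 endothelial genes summed to 92.9, 266.8, 950.6 and 191.8 CPM, led by Fabp4, against 722.5, 1309, 2951 and 742.1 CPM in the other barcodes, and in TAC-6w the other 5 (Pecam1, Cdh5, Kdr, Cldn5 and Egfl7) were at 0. The 6 macrophage genes, of which 3 were limited by the rule, summed to 127, 116.8, 6.09 and 82.2 CPM. Haemoglobin and other red cell genes were uneven, at 4964, 340.3, 682.5 and 27.4 CPM, led by Hbb-bs, against 11390, 5259, 20960 and 1455 CPM in the other barcodes.

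Neutrophil genes summed to 12.4, 14.4, 347.3 and 54.8 CPM, against 34930 CPM in the other barcodes of TAC-4w, and mural cell genes to 133.2, 170.2, 12.2 and 82.2 CPM, led by Acta2. B cell genes reached 60.9 CPM and platelet genes 121.9 CPM, both in TAC-4w, T cell genes at most 8.65 CPM, Schwann cell genes 5.77 CPM, mesothelial genes 6.09 CPM and skeletal muscle genes 15.5 CPM, and the lung epithelial genes were at 0 in all 4 libraries. Neutrophil, B cell and endothelial genes were highest in TAC-4w, where all 3 lists were also highest in the other barcodes, and their part in the TAC-4w results was not tested. The 15 immediate early genes, known to switch on during dissociation, summed to 1025, 967.7, 432.7 and 411 CPM, against 25160, 28030, 12150 and 20180 CPM in the other barcodes. Between pairs of libraries 9 to 30 barcode sequences were shared, and none of the shared ones was cardiomyocyte-rich in both.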

How the data were processed

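Single-cell libraries and Visium sections of mouse hearts were used. The values are UMI counts per gene and barcode or spot, which the authors deposited without normalization. Per the file headers they came from Cell Ranger 6.0.0 and Space Ranger 1.2.0, whereas the submitters' processing notes name Cell Ranger 7.0.0 and Space Ranger 1.3.1 with build mm10. The methods give yet another Cell Ranger version, and neither this nor the kit, which labels and methods also give differently, was resolved. The libraries held 86671674 (sham), 78587992 (TAC-2w), 48278486 (TAC-4w) and 28793316 UMIs (TAC-6w).

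Levels are summed UMIs per 1000000 with exact Poisson intervals, ratios have exact conditional binomial intervals and shares Clopper-Pearson intervals, all at 95%. A gene was called at 2-fold with at least 50 UMIs in either sum. Analyses ran in Python 3.11.15 with scanpy 1.11.5, pandas 2.3.3, scipy 1.17.1 and numpy 2.4.6. Scrublet ran at an expected rate of 7%, and leaving out the 3.2% of highest scores was an alternative. Barcodes were thinned by random draws with a fixed seed, and for other barcodes 500 per library were thinned. The genes named are members of the gene lists, the 10 highest in level, the 10 with the greatest ratio to other barcodes, and the 8 largest and smallest ratios of each TAC comparison (10 between chambers). The barcodes and all gene lists were chosen with earlier results of these data known. The ratio and its interval were tested on simulated data for TAC-4w against sham ventricular-rich barcodes over 612 genes, where 94.6% of intervals held the true ratio and 99.5% of 197 genes changed 4-fold were called.

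Alternatives varied the threshold, the range of genes and UMIs, the C1q limit, the mitochondrial limit, the totals, the minimum of UMIs, the chamber cuts, thinning, Scrublet scores and the libraries. Leaving out barcodes with Malat1 over 5000 CPM or the richest barcode of a gene, and applying the 5% threshold and the Scrublet scores to gene levels, were chosen after seeing the data. Promoters are RefSeq windows of GRCm38.p6.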

Additional observations from a re-analysis of the deposited data

Results flagged for a closer look

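Nppa at TAC-4w differed in direction between the libraries and the sections. Without mitochondrial UMIs in the total, Nppa in ventricular-rich barcodes was 0.0524-fold sham (0.0190 to 0.116, from 6 against 210 UMIs), and in the heart section it was 15.2-fold sham (14.6 to 15.8, from 61321 against 2760 UMIs). It stood out because 1 readout of the condition was far below sham and the other far above it, and the difference was not tested, since each had 1 sample per condition. In sham 140 of the 210 UMIs lay in 1 barcode, and the section of sham is of another batch than the library. The other barcodes were lower in TAC-4w as well. Thinned to 500 UMIs, 4.60% of them held Nppa in sham and 0.2% in TAC-4w, so the low value was not particular to ventricular-rich barcodes.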

How the results depend on the processing

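Requiring 5% in place of 3% from the rule genes gave cardiomyocyte-rich shares of 1.27%, 1.16% and 0.375% in sham, TAC-2w and TAC-4w, summed mitochondrial shares of 11.9%, 15.8%, 8.69% and 8.74% in the 4 libraries, TAC-6w last, and atrial shares of 55.7%, 64.3% and 8.61% in the first 3. A mitochondrial share under 15% gave cardiomyocyte-rich shares of 1.12%, 1.00%, 0.272% and 0.174% and atrial shares of 62.9%, 69.5% and 10.2%. Counting the rule genes among UMIs that were not mitochondrial gave 2.75% in sham and 2.99% in TAC-2w. As a median over barcodes the mitochondrial share was 13.4%, 17.0%, 17.0% and 14.4%. Without the highest Scrublet scores the summed mitochondrial share of TAC-4w was 11.8%, against 12.0% with them. The atrial share was 50.2%, 63.5% and 2.31% as a mean over barcodes, and 70.8%, 81.0%, 13.0% and 0% from Myl4 and Sln against Myl3.

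With at least 20 UMIs the genes past 2-fold over all barcodes were 194 higher and 52 lower in TAC-2w, 162 and 216 in TAC-4w and 356 and 292 in TAC-6w. With a mitochondrial share under 15% they were 11 higher and 5 lower in TAC-2w, 21 higher in TAC-4w and 41 higher in TAC-6w, and without mitochondrial and ribosomal-RNA-like features in the total 27 were higher in TAC-4w. In ventricular-rich barcodes only, they were 6 higher in TAC-2w, 19 higher and 11 lower in TAC-4w and 21 higher and 76 lower in TAC-6w. Between atrial-rich and ventricular-rich barcodes, 89 genes were higher without barcodes of high Malat1, and leaving out each library in turn gave 39 to 148 higher and 84 to 154 lower genes. Fabp4 in TAC-4w against sham turned to 0.854-fold with a mitochondrial share under 15%, which leaves out the barcode that held most of it. Ankrd1 in TAC-2w was 1.82-fold, below 2-fold, with 5% from the rule genes. The ratio of Nppa in TAC-6w was 1.28 without the richest barcode of each library. Of the gene ratios over all alternatives, 46 moved beyond their intervals, 1 turned and 121 did not move. Thinned to 500 UMIs per barcode, Acta1 in TAC-6w was 10.6-fold, Ankrd1 3.88-fold, 3.61-fold and 5.79-fold, Ankrd23 in TAC-6w 8.50-fold, Nppa in TAC-6w 3.57-fold and Ptgds 0.818-fold in TAC-2w and 3.57-fold in TAC-4w. Of the shares and counts, 49 values moved and 53 did not. No paired analysis was possible because each condition had 1 library and 1 section. Depth limits the TAC-6w values most, with 20 barcodes.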

Other observations

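Genes of the pacemaker and conduction system were seen at low levels, mostly in the TAC-2w library. Shox2, a transcription factor of the sinus node, had 17 UMIs in 4 cardiomyocyte-rich barcodes of TAC-2w (24.5 CPM), 1 UMI in sham and 0 in TAC-4w and TAC-6w. Hcn4, the main pacemaker channel, had 5 UMIs in 2 barcodes of TAC-2w and 0 in the other libraries. The other barcodes held Shox2 at 13.5 and 11.6 CPM in sham and TAC-2w, and Hcn4 at 0.113 and 0.136 CPM. These counts are too small to compare the libraries.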
